A study of Mus musculus with 20 samples.

Results

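The metabotropic glutamate receptors measured here were Grm2, Grm3, Grm4, Grm5, Grm7 and Grm8, chosen by gene symbol. All 6 were listed in each of the 4 deposited tables, which held 14700 gene symbols between them, of which 13688 were in every table. The samples were 20 RNA sequencing libraries of primary cortical neurons from mouse embryos at day 15, grown for 7 days. The cultures were wild type (WT) or knockout (KO) for ciRS-7, a circular RNA whose gene is listed as Cdr1as, and all of them carried the strain label C57BL/6N-Cdr1asem1Nikr. Normoxic cultures (N) received 25 mM glucose and 0.2 mM pyruvate, and the other cultures were kept for 12 h at 1% oxygen in medium with neither supplement (oxygen and glucose deprivation, OGD). This gave the groups N_WT, OGD_WT, N_KO and OGD_KO with 5 libraries each. The N and OGD libraries of one number shared a culture label and a batch, and the batches were 1, 2, 3.1, 3.2 and 3.3. No label says whether cultures came from separate animals, so p-values measure the spread between these samples.

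Metabotropic glutamate receptors are G protein coupled receptors that adjust the strength of synapses rather than pass current themselves. Group I receptors, here Grm5, couple to Gq and phospholipase C and sit mainly at the edge of the postsynaptic density. Group II receptors (Grm2 and Grm3) and group III receptors (Grm4, Grm7 and Grm8) couple to Gi and Go, lower cyclic AMP and act largely as brakes on transmitter release. Grm3 and Grm5 are also known from astrocytes. The series addresses ischemic stroke and a network that includes ciRS-7, which binds the microRNA miR-7.

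The 2 mature forms of mouse miR-7 are shown because the knocked out RNA is known for its many miR-7 sites (RefSeq sequences, with the seed, bases 2 to 8, in capitals).
miR-7a-5p: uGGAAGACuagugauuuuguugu
miR-7b-5p: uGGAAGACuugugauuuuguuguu

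The seed is the same in both forms. None of the 6 receptors held the 8-base match GTCTTCCA in its longest annotated 3' untranslated region, a match found in 4.40% of 11808 genes. The 7-base match TCTTCCA, which pairs with bases 2 to 7 and ends in A, occurred once in Grm2, once in Grm7 and at 2 places in Grm5, and a 7-base or 8-base match of any kind occurred in 27.7% of genes. Grm3, Grm4 and Grm8 had none, in regions of 227, 885 and 581 bases. The matches are shown with their surroundings, in capitals, from the GENCODE transcripts of mouse release 21 (build GRCm38), since the knockout comparisons below bear on them.
Grm2 site: aacccagcgtagacccTCTTCCAtggccag
Grm5 first site: acaggctgtgagatacTCTTCCAaaagcct
Grm5 second site: gacattttaaatcaaaTCTTCCAcattagc
Grm7 site: aaatccctttccattcTCTTCCAgttctgt

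The Grm2 match began at base 53 of 1901, those of Grm5 at bases 689 and 2003 of 4038, and that of Grm7 at base 1102 of 1163. These are letter matches and no measure of binding.

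Grm2, the receptor with the largest fall under OGD, lies on chromosome 9 (9:106643095-106656082, minus strand). It spans 12.988 kb, while the other members span between 99.017 kb (Grm4) and 921.65 kb (Grm7). Grm3 lies on chromosome 5 (5:9485541-9725170, minus), Grm4 on chromosome 17 (17:27422387-27521403, minus) and Grm5 on chromosome 7 (7:87584168-88134907, plus). Grm7 (6:110645581-111567230, plus) and Grm8 (6:27275119-28135178, minus) lie on chromosome 6. Grm3 overlaps Gm42455 on the same strand and Grm7 overlaps the antisense gene Gm20387, and both of these genes are listed in the tables. The annotation also places genes that are in no table over Grm5 (6 genes), Grm8 (3), Grm4 (2) and Grm2 (1). Of the 2 genes it places over Grm7, only Gm20387 is in a table. How the authors counted overlaps is not given in the sources used here, so reads of any member in a shared stretch are uncertain.

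The start regions of Grm2 and Grm8 are shown because OGD includes low oxygen, and they differ in the core of the hypoxia response element (ACGTG or GCGTG, searched on either strand, in capitals where present). They run from 250 bases before to 50 bases after the RefSeq start (GRCm38.p6), Grm2 at chr9:106656060-106656359 and Grm8 at chr6:28135097-28135396, both on the minus strand.
Grm2 start region: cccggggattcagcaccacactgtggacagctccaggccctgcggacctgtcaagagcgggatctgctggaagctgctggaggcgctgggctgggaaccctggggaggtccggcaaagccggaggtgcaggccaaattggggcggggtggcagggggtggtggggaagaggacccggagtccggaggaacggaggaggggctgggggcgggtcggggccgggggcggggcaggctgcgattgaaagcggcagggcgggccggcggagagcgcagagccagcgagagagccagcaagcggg
Grm8 start region: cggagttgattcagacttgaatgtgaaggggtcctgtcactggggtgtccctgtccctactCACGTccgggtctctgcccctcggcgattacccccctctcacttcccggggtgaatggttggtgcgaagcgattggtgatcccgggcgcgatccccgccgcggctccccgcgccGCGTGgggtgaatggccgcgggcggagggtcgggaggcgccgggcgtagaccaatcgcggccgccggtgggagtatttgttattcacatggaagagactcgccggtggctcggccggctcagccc

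The Grm2 region holds neither core and has 22 CpG and 72% GC, against a median of 7 CpG and 52.7% GC over 32851 start regions. The Grm8 region holds 1 ACGTG and 1 GCGTG and 33 CpG, and the other 2 start regions listed for Grm8 hold neither. The start region of Grm3 (11 CpG) holds neither core. Those of Grm7 overlap each other and hold the same 2 GCGTG. No start region was listed for Grm4 or Grm5, so theirs were not examined. Of all start regions, 43.8% hold at least 1 of the cores.

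The genotype and the treatment were visible in their own marker genes. Cdr1as had 700 to 1365 reads in the normoxic WT libraries and 5 to 16 in the normoxic KO libraries. Slc2a1, a glucose transporter induced by hypoxia, rose by 3.95 on the log2 scale in WT and 3.50 in KO under OGD, and Vegfa, an angiogenic growth factor, by 3.29 and 2.98. Libraries held between 7071506 and 16658617 recovered reads. In OGD_WT replicate 5, Slc2a1 (45.4 reads scaled to library size, CPM) and Vegfa (202 CPM) were the lowest of the OGD_WT libraries. Its Slc2a1 still lay above the 3.81 to 6.70 CPM of N_WT. The results of Grm3, Grm7 and group II under OGD in WT are given with and without this library. It had the highest Grm3 and Grm7 levels of OGD_WT, so leaving it out enlarges their falls by construction. Values without it describe its weight and are no separate support. OGD_WT and N_WT values below are on the scale of the table that compares them, likewise for KO, so levels of WT and KO libraries come from separately scaled tables.

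Per length of the longest transcript, Grm5 was the most abundant member in normoxic WT neurons, at 26.1 ± 3.39 CPM per kb (SD, n = 5). Grm3 followed at 10.5 ± 1.47 CPM per kb, then Grm7 at 7.15 ± 0.97 and Grm8 at 4.40 ± 0.784. Grm2 (2.07 ± 0.333) and Grm4 (1.49 ± 0.205 CPM per kb) were lowest, and only their ranges overlapped among neighbours in this order. In N_KO the order was the same at the top, but the ranges of Grm3 and Grm7 and of Grm7 and Grm8 overlapped, and Grm4 (1.74 ± 0.335) and Grm2 (1.64 ± 0.13) could not be ranked. Under OGD, Grm2 was the lowest of the members in both genotypes. It stood at 0.657 ± 0.164 CPM per kb in OGD_WT and 0.594 ± 0.154 in OGD_KO. With this length its libraries did not overlap those of Grm4 (1.19 ± 0.12 and 1.51 ± 0.554 CPM per kb). With the median transcript length instead, the shares of Grm2 and Grm4 in the members' summed level overlapped under OGD. They were 1.19% to 2.87% and 1.64% to 2.69% in OGD_WT, and 0.984% to 2.28% and 2.02% to 5.69% in OGD_KO. In N_WT Grm2 then lay above Grm4, at 3.32% to 4.56% against 1.63% to 2.18%.

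**Figure D1:**
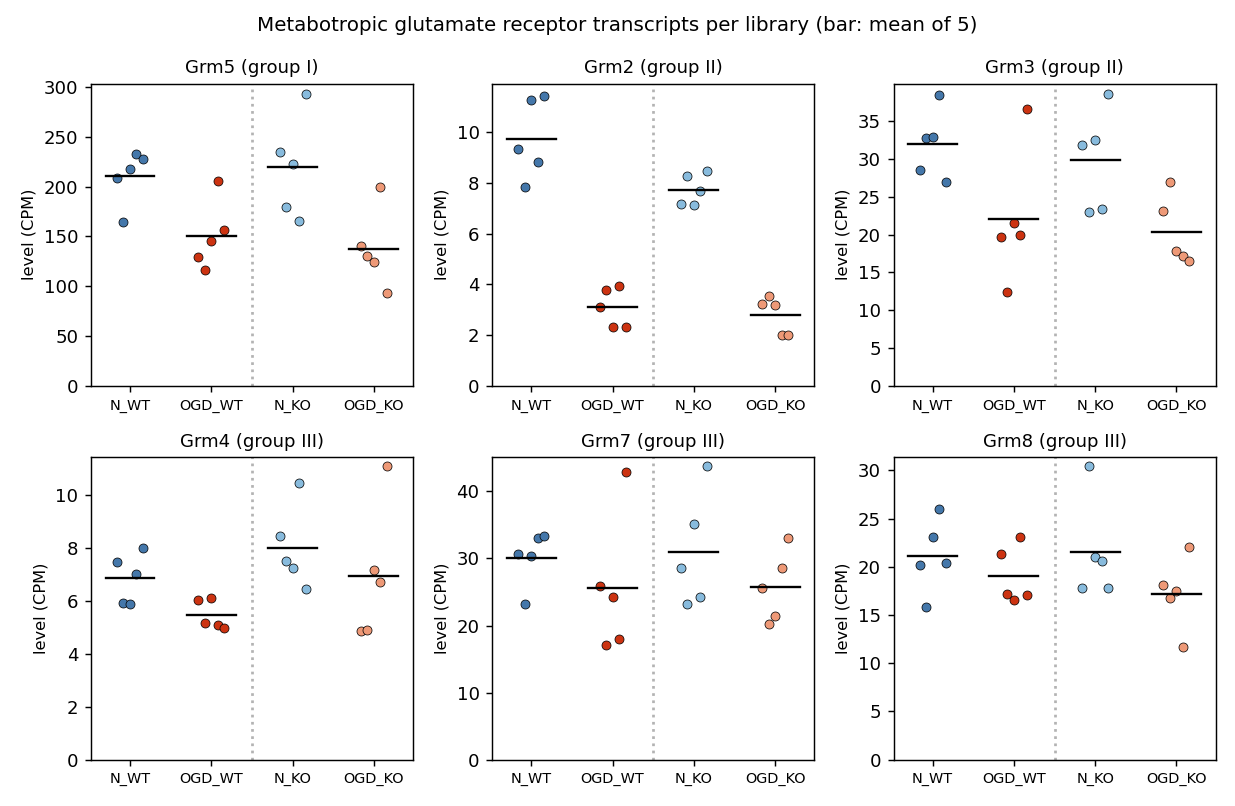
Level of each receptor transcript in CPM (vertical axes, each from 0) in the 5 libraries of each group, with a bar at the mean. N_WT and OGD_WT, left of the dotted line, and N_KO and OGD_KO come from separately scaled tables. The OGD libraries of Grm2 sit between 2.00 and 3.95 CPM, below all N libraries of both genotypes.

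OGD was compared with normoxia within each genotype, which asks how receptor transcripts differ after deprivation. In WT neurons, Grm2, Grm3 and Grm5 fell, and the other 3 members had lower means without passing the test. In KO neurons the same 3 receptors fell. Grm2 dropped by 65.8% in WT cultures and dropped by 61.2% in KO cultures, the most of the 6. Grm3 fell by 33.9% and 31.5% and Grm5 by 29.1% and 37.7%. Being called was common among all genes: 44.3% of 14235 genes passed the limma test (adjusted p under 0.05) in WT and 40.9% of 14375 in KO, with 22.8% and 19.9% of all genes lower and 21.6% and 21% higher. The count of 3 of 6 members lower and 0 higher in each genotype is read against those shares. All 6 members had negative log2 fold changes in both genotypes, and their medians were -0.40 for WT and -0.43 for KO, while the median of all genes was -0.03 and 0.00 and 51.9% and 49.8% of all genes were lower. As bulk RNA, these values cannot tell fewer cells of a type from less RNA per cell.

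Grm2 encodes a presynaptic group II autoreceptor. In N_WT its 5 libraries held 9.34, 7.83, 11.3, 8.81 and 11.4 CPM, and in OGD_WT 3.12, 3.77, 2.30, 3.95 and 2.33 CPM. In KO neurons the normoxic libraries held 7.15, 8.25, 7.13, 7.67 and 8.47 CPM and the OGD libraries 3.23, 3.53, 3.19, 2.00 and 2.02 CPM. The groups did not overlap in either genotype, which held for 13.1% of all genes as lower in WT and 12.4% in KO. The fall was 1.55 on the log2 scale in WT, 2.92-fold (log2 fold change -1.55, SE 0.18, limma adjusted p = 7.21e-07), and 2.58-fold in KO (-1.37, SE 0.17, adjusted p = 7.06e-06). Since the groups did not overlap, both reached the smallest p that an exact two-sided permutation test of 5 against 5 can give, 0.00794. For the same reason all 5 WT cultures and all 5 KO cultures were lower under OGD. The falls were between 0.98 and 2.11 in WT and between 1.05 and 1.86 in KO on the log2 scale. Only 94 of the 14235 genes tested in WT (0.66%) and 147 of 14375 in KO (1.02%) had a lower fold change. These values rest on 87 to 134 reads per N_WT library and 23 to 48 per OGD_WT library.

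Grm3, the other group II receptor, fell less and less evenly. N_WT libraries held 28.5, 32.8, 32.9, 38.4 and 26.9 CPM and OGD_WT libraries 19.7, 12.4, 21.5, 20.001 and 36.7 CPM. The last of these, replicate 5, lay among the normoxic values, and the other 4 lay below all of them. In KO, normoxic libraries held 31.9, 23.0, 32.6, 23.3 and 38.6 CPM and OGD libraries 23.1, 27.0, 17.8, 17.2 and 16.5 CPM, and the groups overlapped. The log2 fold change was -0.60 in WT (SE 0.20, limma adjusted p = 0.0198) and -0.54 in KO (SE 0.18, adjusted p = 0.0192), with 4 of 5 cultures lower in each. Without OGD_WT replicate 5, the highest Grm3 value of OGD_WT, it was -0.80 (limma adjusted p = 0.000201), a larger fall by construction. The call did not hold in WT with the culture as a block (adjusted p = 0.0513) or without OGD_WT replicate 2 (-0.42, 0.075) or N_WT replicate 4 (0.0666), nor in KO without OGD_KO replicate 3 (0.051), N_KO replicate 3 (0.0508) or N_KO replicate 5 (0.0529).

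Within group II, the Grm3 to Grm2 ratio had a higher mean under OGD and did not pass adjustment. The mean log2 ratio went from 1.70 ± 0.37 to 2.71 ± 0.835 in WT (SD, n = 5, exact permutation p = 0.0317) and from 1.90 ± 0.35 to 2.79 ± 0.225 in KO (exact p = 0.00794). After Benjamini-Hochberg adjustment over the 16 ratio tests these became 0.254 and 0.127. An exact permutation p of 0.00794 is the smallest that 5 against 5 libraries can give. A single ratio at that p cannot pass after adjustment over 16 tests. The lack of a pass therefore does not show that the ratio stayed level. Without OGD_WT replicate 5, which had the highest ratio (3.87), the OGD_WT mean was 2.42 (n = 4, exact permutation p = 0.0635, adjusted 0.339). The KO libraries did not overlap (1.46 to 2.17 in normoxia, 2.41 to 2.99 under OGD), and the WT libraries did.

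Grm5, the main group I receptor of cortical neurons, was the member with the most reads. N_WT libraries held 209, 164, 217, 233 and 227 CPM and OGD_WT libraries 130, 116, 145, 206 and 156 CPM. N_KO libraries held 234, 179, 223, 166 and 293 CPM and OGD_KO libraries 141, 131, 125, 200 and 93.1 CPM. One OGD library in each genotype, both replicate 4, reached into the normoxic range. The log2 fold change was -0.50 in WT (SE 0.16, limma adjusted p = 0.0168, 5 of 5 cultures lower) and -0.68 in KO (SE 0.20, adjusted p = 0.00922, 4 of 5 lower). The WT call was lost without OGD_WT replicate 1 (-0.45, adjusted p = 0.0538).

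The group III receptors, presynaptic brakes on release, did not pass the test in either genotype on the authors' scaling with the clipping undone. With the values as deposited, Grm4 (limma adjusted p = 0.0464) and Grm7 (0.0327) passed as lower in WT and none did in KO. Grm4 ranged from 5.88 to 8.02 CPM in N_WT and 4.96 to 6.11 in OGD_WT (log2 fold change -0.30, adjusted p = 0.117), and from 6.44 to 10.5 in N_KO and 4.85 to 11.1 in OGD_KO (-0.24, 0.355). Grm7, a receptor of the release site itself, ranged from 23.2 to 33.4 CPM in N_WT and 17.1 to 42.9 in OGD_WT (-0.30, 0.23), and from 23.2 to 43.7 in N_KO and 20.3 to 33.0 in OGD_KO (-0.24, 0.302). Without OGD_WT replicate 5, whose 42.9 CPM was the highest WT value, Grm7 had -0.50 in WT and passed (limma adjusted p = 0.0116). Dropping the highest OGD value of a gene enlarges its fall by construction, so this pass is no separate support. Grm8 ranged from 15.9 to 26.0 CPM in N_WT and 16.6 to 23.1 in OGD_WT, and from 17.8 to 30.4 in N_KO and 11.7 to 22.1 in OGD_KO. Its log2 fold change was -0.14 in WT (95% interval -0.47 to 0.19) and -0.32 in KO (-0.69 to 0.06). The groups of all 3 genes overlapped in both genotypes. Leaving out 1 library at a time moved the log2 fold change of Grm8 in WT between -0.24 (without N_WT replicate 2) and -0.06 (without N_WT replicate 4). In KO it moved Grm4 between -0.42 (without OGD_KO replicate 5) and -0.13 (without OGD_KO replicate 1), Grm7 between -0.34 and -0.11 (without OGD_KO and N_KO replicate 5) and Grm8 between -0.41 and -0.19 (without OGD_KO replicate 5 and N_KO replicate 2). The intervals allow falls of the size seen for Grm3 in Grm4 (to -0.62 in WT), Grm7 (to -0.71) and, in KO, Grm8, so the group III receptors are not shown to have stayed level.

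These calls depend on how libraries are scaled. With libraries scaled to their total of recovered reads, the median of all genes moved to -0.30 in WT and -0.28 in KO, and all 6 members were called lower in both genotypes. The split of all calls was then 1625 higher and 5744 lower in WT, against 3069 and 3244 on the authors' scaling, and 1479 and 5289 in KO, against 3021 and 2863. Relative to the shifted median, Grm2 remained the member with the largest fall (-1.89 in WT and -1.72 in KO before subtracting it). Every member was lower in both genotypes under the authors' scaling, median centring and total read scaling.

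**Figure D2:**
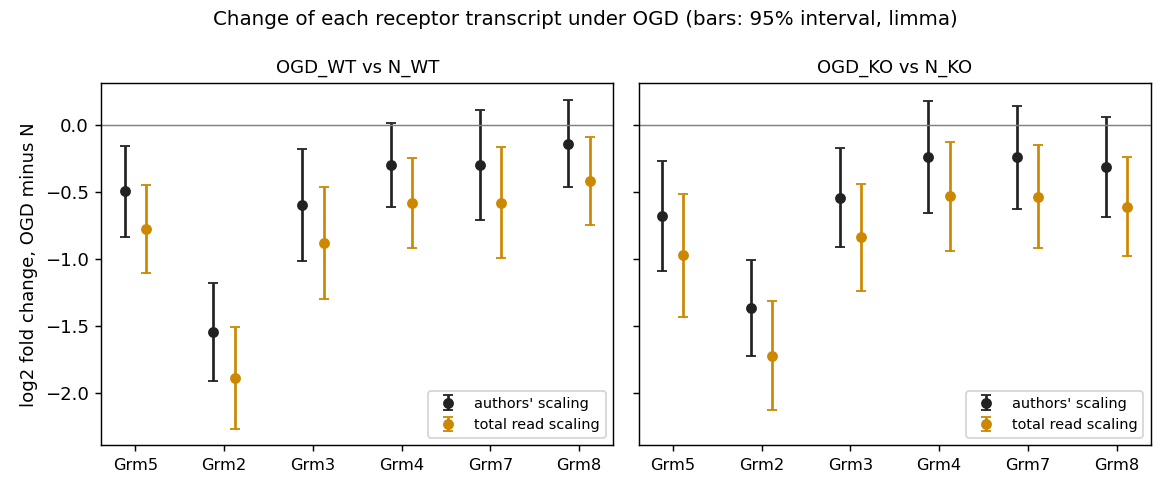
Log2 fold change of OGD minus N (vertical axis) for each member, WT left and KO right, with 95% intervals from limma, on the authors' scaling (black) and on total read scaling (orange). Grm2 lies lowest in both panels, and the intervals of Grm4, Grm7 and Grm8 cross 0 on the authors' scaling and lie below 0 on total read scaling.

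The batches were compared because cultures came from several of them. In batch 1, the 1 WT and 1 KO culture had Grm2 differences of -1.46 and -1.05 on the log2 scale, and the 1 KO culture of batch 2 had -1.06. The cultures of batches 3.1, 3.2 and 3.3 were then pooled as batch 3. Their Grm2 differences in WT were -0.98 and -1.08 (3.3), -2.10 (3.2) and -2.11 (3.1). In KO they were -1.13 and -1.73 (3.1) and -1.86 (3.3). In the batch 3 cultures alone Grm2 was called in both genotypes (-1.57 in each, limma adjusted p = 3.62e-06 and 1.96e-05), as was Grm3 in WT (-0.62, 0.0428). Grm5 was not called in either (-0.45, 0.097, and -0.61, 0.211), nor Grm3 in KO (-0.47, 0.313), with 4 WT and 3 KO cultures left. With batch as a term in the fit, Grm2, Grm3 and Grm5 were called in both genotypes.

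**Figure D3:**
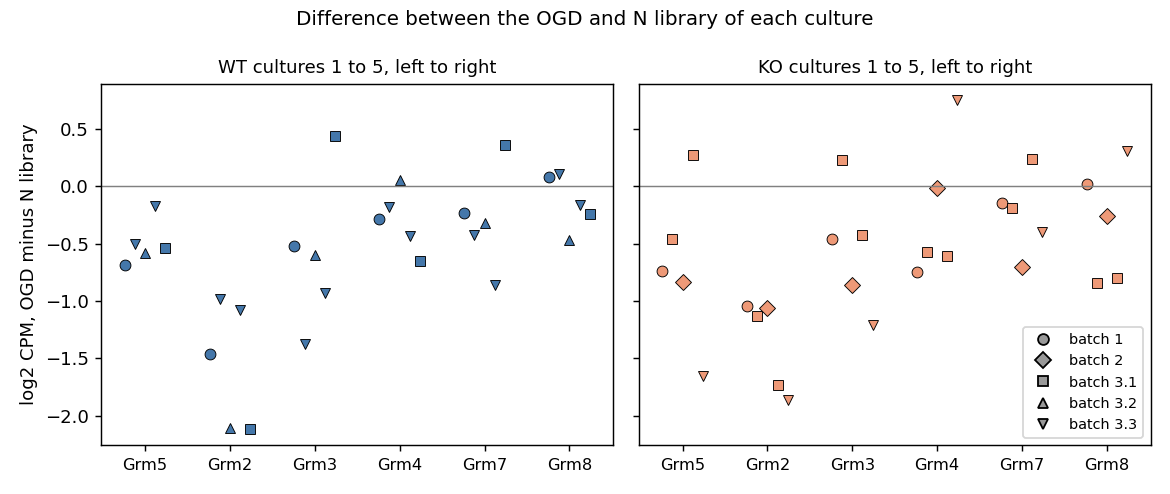
Log2 CPM of the OGD library minus the N library of the same culture (vertical axis) for each member, cultures 1 to 5 from left to right within a member, with the batch as the symbol. All 10 Grm2 points lie below -0.9, while every other member except Grm5 in WT has at least 1 culture above 0.

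Markers of several cell types moved with the same comparisons. The counts called are read against the 22.8% of all genes called lower and 21.6% called higher in WT, and 19.9% and 21% in KO. All 7 excitatory neuron markers fell in both genotypes, with a summed level of 896 to 1055 CPM in N_WT and 468 to 519 in OGD_WT, and 752 to 1034 in N_KO and 412 to 622 in OGD_KO. Their median log2 fold change, -1.03 in WT and -0.92 in KO, lay between those of Grm2 and Grm3. Of the 8 general neuron markers 3 fell in WT and 4 in KO, with sums of 4590 to 6068 CPM in N_WT, 2919 to 5626 in OGD_WT, 5121 to 5252 in N_KO and 3084 to 4526 in OGD_KO. Of 10 interneuron markers 3 fell in each, near the share of all genes called lower. Their sums overlapped (366 to 460 and 324 to 479 CPM in WT, 366 to 535 and 322 to 471 in KO). Of the 9 astrocyte markers listed (S100b was not), 6 rose and 1 fell in WT and 5 rose in KO, with sums of 1156 to 1455 CPM in N_WT and 1877 to 2334 in OGD_WT, and 888 to 1582 in N_KO and 1522 to 2350 in OGD_KO. Of these, 5 in WT and 3 in KO were still called higher on total read scaling. Of 9 progenitor and proliferation markers 6 rose in each genotype, from 768 to 1012 CPM to 1199 to 2344 in WT and from 715 to 1109 to 1591 to 2051 in KO. The 7 oligodendrocyte lineage markers listed (Mog was not) gave 1 higher and 2 lower in WT and 3 higher in KO, the latter 0 higher and 3 lower on total read scaling, with overlapping sums of 200 to 478 CPM over all groups. Among Cajal-Retzius markers 1 of 4 fell in WT and 1 of 3 in KO, 1 of 5 endothelial markers was listed, and none of 7 microglial markers was listed. The listed endothelial marker, Kdr, rose from 0.349 to 1.16 CPM to 0.892 to 1.72 in WT (log2 fold change 0.60, limma adjusted p = 0.0311, lost at 0.0612 without OGD_WT replicate 5 and at 0.138 on total read scaling) and from 0.409 to 0.859 CPM to 1.01 to 2.72 in KO (1.11, 0.000478). The part of these shifts in the receptor values was not tested.

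The knockout was compared with WT within each treatment, which asks whether receptor levels depend on ciRS-7. No member was called in either comparison, in which 0.0353% of 14152 genes passed in normoxia and 0.0282% of 14185 under OGD. The unadjusted limma p was under 0.05 for 256 genes in normoxia and for 253 under OGD. Both counts are below the share of 0.05 expected with no effect at all, so both tests looked conservative. The lack of calls therefore cannot show that receptor levels were the same in both genotypes. In normoxia Grm2 had the largest difference, -0.28 on the log2 scale (95% interval -0.57 to 0.02, unadjusted limma p = 0.0679, adjusted p = 1.00, exact permutation p = 0.0397), and the groups overlapped. Grm4 had 0.24 (-0.08 to 0.57), and the other 4 lay between -0.08 and 0.08. Under OGD, Grm4 had 0.28 (-0.14 to 0.70) and the other 5 lay between -0.14 and 0.08. Without OGD_WT replicate 5, Grm3 had 0.16 and Grm7 0.29. Besides Grm2, the receptors with a miR-7 match had 95% intervals of -0.25 to 0.41 for Grm5 and -0.31 to 0.40 for Grm7 in normoxia. Under OGD the intervals were wider, -0.54 to 0.29 for Grm5, -0.38 to 0.54 for Grm7 and -0.56 to 0.32 for Grm2. Differences within these bounds cannot be told from none.

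Whether the OGD effect depended on genotype was tested in 1 model over all 20 libraries. Libraries in this model were scaled to their total of recovered reads, unlike the comparisons above on the authors' scaling. None of 13688 genes passed (percent called 0), with 100 at an unadjusted limma p under 0.05. That is fewer than the share of 0.05 expected with no effect at all, so the test looked conservative. The lack of calls therefore cannot show that the OGD effect was the same in both genotypes. The Grm2 effect was 0.16 less negative in KO (95% interval -0.41 to 0.74), that of Grm5 0.20 more negative (-0.80 to 0.41) and that of Grm8 0.19 more negative (-0.72 to 0.34). Grm3, Grm4 and Grm7 had interaction terms between 0.04 and 0.05, each with an adjusted p of 1.00. Without WT culture 5, Grm3 had 0.32 and Grm7 0.23.

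The makeup of the family was described by shares of the summed CPM per kb of the 6 members. Group I made up 50.4% ± 2.02 of it in N_WT and 49.6% ± 6.63 in OGD_WT (SD, n = 5), and 51.8% ± 2.81 in N_KO and 47.5% ± 8.46 in OGD_KO. Group III made up 25.2% ± 1.02 in N_WT and 29.9% ± 3.92 in OGD_WT, and 26.4% ± 3.20 and 32.0% ± 8.21 in KO. The group II share was 24.4% ± 2.99 and 20.5% ± 3.88 in WT, and 21.9% ± 0.757 and 20.5% ± 4.75 in KO. Without OGD_WT replicate 5 the OGD_WT share of group II was 18.9% ± 1.94 (n = 4). Grm2 alone went from 4.01% ± 0.536 to 1.82% ± 0.686 in WT and from 3.22% ± 0.6 to 1.69% ± 0.492 in KO. The shares take the longest transcript as the length; with the median transcript length Grm5 had 69.0% in N_WT, so levels between members are approximate.

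Over the 20 libraries, each member was set beside the 12686 genes whose average log2 CPM was 1 or more, by the root mean square difference of their centred log2 profiles. The genes nearest to Grm2 were Icam5, a telencephalic adhesion molecule of excitatory neurons (0.20), Gabra5, a GABA-A receptor subunit (0.23), and Gucy1a1, a subunit of the nitric oxide receptor (0.23), against a median of 0.85 over all genes. Because these 3 genes were chosen by likeness to Grm2 over the same libraries, their fall under OGD is no separate result. Their log2 fold changes were -1.43 in WT and -1.69 in KO for Icam5, -1.21 and -1.38 for Gabra5, and -1.44 and -1.39 for Gucy1a1. Nearest to Grm5 were Cplx2, a complexin of synaptic vesicle fusion (0.12), Arrb1, a beta-arrestin (0.14), and Srsf12 (0.14). Fam222b, 4933431E20Rik and Mapk8ip2, a JNK scaffold, lay nearest to Grm3 (0.16 to 0.18), Hspb11, Ubr1 and Haus8 to Grm4 (0.19 to 0.20), Rps6kl1, Ccdc15 and Grid1, a delta glutamate receptor, to Grm7 (0.15 to 0.20), and Mrpl11, Mapre3 and Fip1l1 to Grm8 (0.15 to 0.17). Among the members the closest pairs were Grm3 with Grm5 (0.34) and Grm3 with Grm7 (0.35), and 7.21% and 7.79% of genes lay nearer to Grm3. The 2 group II receptors differed by 0.66, and 20.2% of genes lay nearer to Grm2 than Grm3 did.

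Some genes that carry receptor signals also changed under OGD, and 0 of them were called between genotypes in either treatment. The counts in each list are read against the 22.8% of all genes called lower and 21.6% called higher in WT, and 19.9% and 21% in KO. In the Gi and Go list of groups II and III (G protein subunits, adenylyl cyclases, potassium channels), 14 of 26 genes fell and 1 rose in each genotype. The list's median log2 fold change was -0.52 in WT and -0.58 in KO. Gng4, a G protein gamma subunit, fell (log2 fold change -1.71 in WT and -1.76 in KO), from 53.3 to 69.0 CPM in N_WT to 14.4 to 31.7 in OGD_WT. Kcnj3, the GIRK1 potassium channel opened by G protein beta-gamma subunits, fell as well (-1.61 and -1.44). Adcy1, a calcium-stimulated adenylyl cyclase, fell (-1.38 and -1.34), from 469 to 577 CPM in N_WT to 132 to 262 in OGD_WT. Gnai2, an inhibitory G protein alpha subunit, rose by 0.71 and 0.57, though on total read scaling its KO rise (0.28) was not called (limma adjusted p = 0.165).

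In the Gq and phospholipase C list of group I, 8 of 24 genes fell and 3 rose in each genotype. The list's median was -0.28 for WT and -0.29 for KO. Ptk2b, a calcium-activated tyrosine kinase, fell (log2 fold change -1.197 in WT and -1.37 in KO), as did the cation channel Trpc5 (-1.04 and -1.06). Itpr2, an IP3 receptor, rose by 0.69 and 0.66, Plcb4 by 0.57 and 0.71 and Plcb3 by 0.48 and 0.61, the latter pair being phospholipases C. On total read scaling Itpr2 was called in both genotypes, Plcb4 in KO (0.42) and Plcb3 in neither (0.21 and 0.34).

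Of 31 binding partners and scaffolds 8 fell and 4 rose in WT, and 7 fell and 3 rose in KO, the falls being near the share of all genes called lower. Caln1, a calmodulin-like protein, fell (log2 fold change -1.71 in WT and -1.39 in KO), and so did the calmodulin gene Calm2 (-0.65 and -0.74). Arc, an activity-induced regulator of receptor trafficking, went the other way. It rose by 2.70 in WT and 2.31 in KO, from 2.18 to 3.37 CPM in N_WT to 13.5 to 25.0 in OGD_WT. Ppp1cc, a phosphatase catalytic subunit (0.56 and 0.57), and Fmr1, an RNA-binding protein linked to group I signalling (0.52 and 0.49), rose on the authors' scaling and were not called in either genotype on total read scaling. Of 21 desensitization genes (receptor kinases, arrestins and RGS proteins) 5 fell in each genotype, also near that share, and 0 rose in WT and 1 in KO. Those with the largest falls were Rgs17 (-1.59 and -1.29), Rgs4 (-1.31 and -1.46) and Rgs19 (-0.81 and -0.77), all of them RGS proteins, which speed the shut-off of G proteins.

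Among 17 ionotropic glutamate receptor genes 6 fell and 2 rose in WT, and 8 fell and 2 rose in KO, a median of -0.23 in each. The NMDA receptor subunits Grin1 (-0.79 and -0.98), Grin2b (-0.70 and -0.73) and Grin2a (-0.62 and -0.77) fell by amounts between those of Grm3 and Grm2. Grin2c (1.03 and 0.60), at under 2.4 CPM in every library, and Grik2, a kainate receptor subunit (0.61 and 0.71), rose, and on total read scaling only Grin2c in WT remained called (limma adjusted p = 0.00277). With total read scaling, the calls lower and higher in WT were 20 and 1 in the Gi and Go list, 16 and 1 in the Gq list, 15 and 2 in the partner list, 14 and 0 in the desensitization list and 10 and 1 in the ionotropic list. In KO they were 19 and 0, 13 and 2, 13 and 1, 11 and 0, and 11 and 0.

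**Figure D4:**
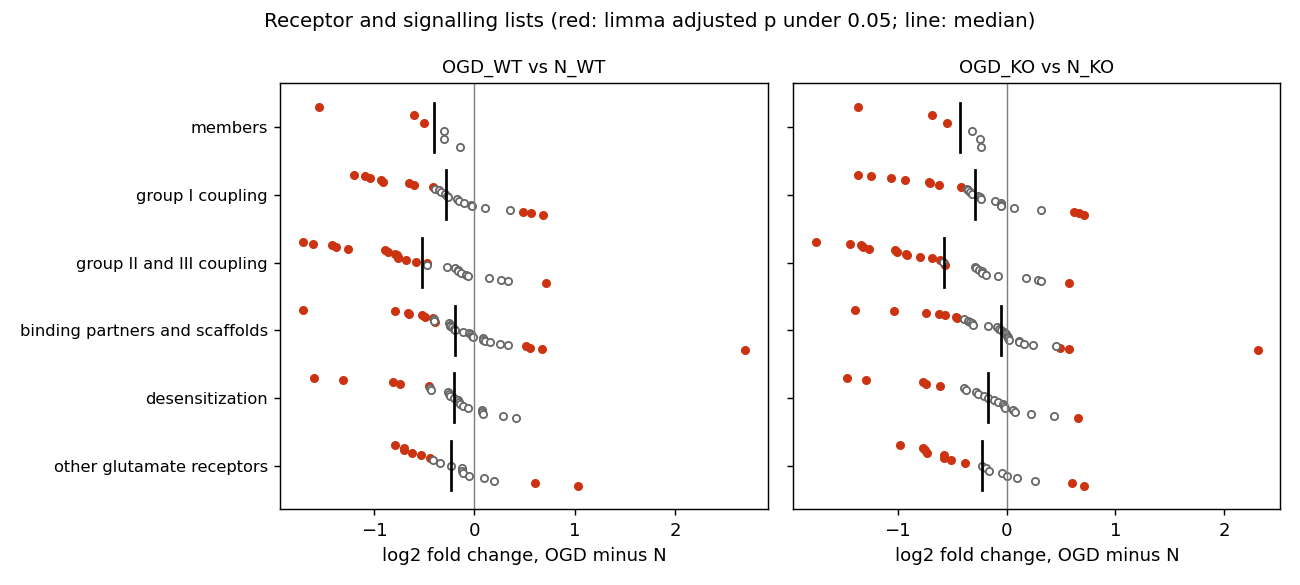
Log2 fold change of OGD minus N (horizontal axis) for every measured gene of the receptor and signalling lists, WT left and KO right, with called genes filled in red and a line at each list's median. Medians of all lists lie below 0, and Arc is the point furthest to the right, at 2.70 in WT and 2.31 in KO.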

How the data were processed

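The authors deposited log2 CPM values in 4 tables of 10 libraries and 14152 to 14375 genes each. Libraries were stranded total RNA, per the labels' protocols, and the build was mm10, per the submitters' processing notes. The aligner, counting and scaling are not given in the sources used here. The values looked clipped within each group of 5 (weight 0.6 on the extreme), which was inferred from the values and undone: as deposited 45.5% to 92.8% of a library's values were whole reads (within 0.05), and afterwards at least 99.91%. Each table was fitted with limma 3.58.1 in R 4.3.3 (lmFit, eBayes with trend), with p-values adjusted by Benjamini-Hochberg over all genes and called under 0.05. The interaction used recovered reads, scaled to each library's total, as log2 CPM with prior count 2. The culture entered as a correlated block (estimated correlation -0.169). Single values were tested by exact two-sided permutation. Scripts were tested on simulated data. The named pathway genes were up to 3 with the largest rise and 3 with the largest fall among those called alike in both OGD comparisons, and the nearest profiles were the 3 closest genes. Some genes that the rule names are not reported here. The labels pair N and OGD libraries by culture and batch. Deviations from the group means of same-numbered libraries correlated between -0.643 and 0.0573 in WT and -0.79 and -0.0650 in KO. Alternatives were other scalings, prior counts, filters, blocks, batches and left-out libraries. Members and lists were chosen with earlier results of these data known.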

Additional observations from a re-analysis of the deposited data

Results flagged for a closer look

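Of 40 groups of 5 values examined (each member and ratio in each group), 2 held a value far from the other 4, and chance alone gives about 2. Grm7 in N_WT replicate 2 was at 4.56 log2 CPM, while the other 4 normoxic WT libraries lay between 4.95 and 5.08. The Grm4 to Grm7 log2 ratio in OGD_WT replicate 5 was -3.07, against -2.06 to -1.69 in the other 4 libraries, and this library also had the highest Grm3 and Grm7 levels and the lowest Slc2a1 and Vegfa levels of OGD_WT.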

How the results depend on the processing

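Under every alternative run, Grm2 was called lower under OGD in both genotypes, and no member was called between genotypes or for the interaction. The count of members called moved most with scaling: 6 in each genotype with total read scaling, which was added after seeing the data. It was 5 in WT with the clipping kept, where Grm4 and Grm7 were added, and 1 in KO with batch 3 cultures alone. With the replicate block it was 2 in WT, and Grm3 (adjusted p = 0.0513) was the call lost; the block changed no other call of a member. In the genotype comparisons, libraries of one number share a batch only for number 1, and the replicate block gave 3 genes called in normoxia and 2 under OGD. Leaving out 1 replicate gave 2 to 4 members in WT and 2 to 3 in KO, and over all genes 5250 to 6635, 4908 to 5930, 3 to 5 in normoxia between genotypes and 1 to 7 under OGD.

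Over all genes, batch 3 cultures alone gave 2341 calls for OGD in KO. Between genotypes, normoxia gave 9 with the clipping kept, 3 with the filter at a mean log2 CPM of 1, 11 with the batch covariate and 2 in batch 3. OGD gave 12 with the clipping kept, 1 with prior count 0.5, 17 with the batch covariate and 2 with total read scaling.

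Effects near 0 changed sign: between genotypes in normoxia Grm3 was 0.0422 with the batch covariate and Grm7 -0.00049 with the clipping kept, the Grm2 interaction was -0.0574 in batch 3, and the Grm4 to Grm7 ratio under OGD in KO was -0.00718 with prior count 0.5. Without OGD_WT replicate 5, also added after seeing the data, the Grm4 to Grm7 ratio was 0.237 for OGD in WT and -0.0363 between genotypes under OGD, and both changed sign. Leaving out 1 replicate, the normoxic genotype difference ran from -0.174 to 0.0123 for Grm3, -0.0325 to 0.169 for Grm5, -0.0849 to 0.142 for Grm7 and -0.0726 to 0.134 for Grm8. Under OGD it ran from -0.228 to 0.157 for Grm3, -0.272 to 0.00115 for Grm5 and -0.0410 to 0.288 for Grm7. The interaction ran from -0.156 to 0.322 for Grm3, -0.160 to 0.172 for Grm4, -0.462 to 0.0919 for Grm5 and -0.116 to 0.231 for Grm7.

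With the median transcript length, group I shares were 69.0% in N_WT, 68.2% in OGD_WT, 70.1% in N_KO and 66.3% in OGD_KO, group II shares 13.6%, 10.8%, 11.9% and 10.9%, and group III shares 17.3%, 21.03%, 18.1% and 22.9%. The causes of changes not set by an alternative's own construction were not tested. Depth limits Grm2 under OGD most, at 12 to 48 reads per library.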
